A study of Mus musculus with 23 samples.

Results

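The comparison of exercised with sedentary mice in sorted cancer cells comprises 15 of the 23 libraries of the series, 7 of exercised and 8 of sedentary mice. Its members were taken by their labels, as every library of the iRFP-positive sort. All mice were FVB and all bore tumours of Met1-iRFP, a mouse mammary carcinoma line tagged with a near-infrared fluorescent protein. The tumours were dissociated, and the iRFP-positive cells, labelled as cancer cells, were sorted away from the iRFP-negative cells of the tumour microenvironment (TME), which form the other 8 libraries. The only labelled difference between the groups is exercise or sedentary housing. The labels used here give neither the kind or length of exercise nor the age of the mice. They also do not tie libraries to single animals, so every p-value measures the spread between libraries. As all cancer cells come from a single line, the comparison holds for that line only.

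Physical exercise changes hormones, body temperature, fuel supply and the daily rhythm of an animal, and each of these signals can reach a tumour through the blood. In a dividing cancer cell such signals act on a few well-known programmes. The cell cycle machinery duplicates and divides the cell, the circadian clock is a feedback loop in which transcriptional repressors shut off their own activators, and heat shock factors raise chaperone genes when proteins misfold. The expression of ribosomal, mitochondrial and lipid genes follows the growth state of the cell.

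Total counts were 15924340 to 25563245 in sedentary and 20073700 to 25526059 in exercised libraries, and mitochondrial transcripts took 1.86% to 3.9% of them. Exercised libraries 7, 8 and 10 stood apart from the other 12. They held 439 to 489 processed pseudogenes above 0.5 counts per 1000000 (CPM), while the other 12 cancer libraries held 518 to 726, and the TME libraries held 604 to 726. Of 656 tested processed pseudogenes 80, or 12.2%, were lower in these 3 libraries than in every other, against 0.85% of protein-coding genes. No sedentary library shows this pattern, so it cannot be told apart from exercise in these 3 libraries, and results are also given for the 12 libraries without them. For single genes this second value is printed where it is smaller or larger by over 1.5 times, marked "in 12 libraries". Sedentary library 4 stood apart as well. It had the most extreme score of the 15, -37.06, on the principal component that carried 25.6% of the variance of the 500 most variable genes, and the fewest genes with a count, 18512. Leukocyte markers were highest in exercised library 8, at a mean of 3.23 log2 CPM, and lowest in sedentary library 3, at 1.03.

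**Figure D1:**
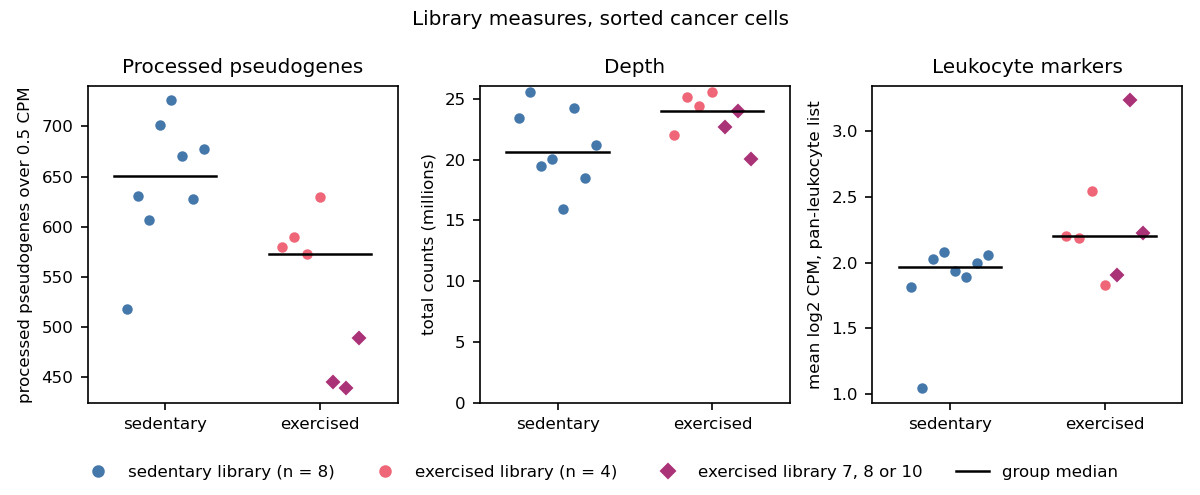
Each point is 1 library of sorted cancer cells, and horizontal lines are group medians. The left panel counts processed pseudogenes above 0.5 CPM, the middle panel gives total counts in units of 1000000, and the right panel gives the mean log2 CPM of 12 pan-leukocyte genes. Exercised libraries 7, 8 and 10 (diamonds) lie at 439 to 489 pseudogenes, below every other library, while their total counts lie within the range of the others.

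The label of cancer cells was checked against markers. Of 12 epithelial markers 6 were below 1 CPM in every library, among them the keratin genes Krt8, Krt19 and Krt7 and the claudin genes Cldn4 and Cldn7. Krt18, another keratin gene, had 70.4 to 122 CPM in sedentary libraries (median 94.7) and 56.5 to 99.8 in exercised libraries (median 67.3), and Wfdc2, a secreted epithelial protein, had 244 to 429.6 CPM in sedentary libraries (median 324) and 199 to 316 in exercised libraries (median 280.4). The mesenchymal genes were abundant: Vim, which encodes vimentin, had a median of 3349.8 CPM in sedentary and 3389 in exercised libraries. Of the other markers, Spint2 had a median of 17.3 CPM in sedentary and 14.3 in exercised libraries, and Cldn3, Epcam and Cdh1 had at most 5.4. The cells therefore carried few epithelial transcripts at a high level beside Krt18 and Wfdc2. The ranges of Krt18, Wfdc2 and Vim overlapped those of TME libraries, so these genes do not set the cancer sort apart. Their medians in sedentary and exercised TME libraries were 69.9 and 56.7, 380 and 255, and 3180 and 3630 CPM. The leukocyte gene Ptprc had 2.32 to 7.89 CPM in sedentary and 4.49 to 12.4 in exercised cancer libraries, and 17.3 to 223 in TME libraries. The 12 pan-leukocyte genes summed to 45.36 to 103.3 CPM in sedentary and 69.84 to 165.8 in exercised libraries, against 418.2 or more in each TME library. In sorted bulk RNA, fewer cells of a type and less RNA per cell cannot be told apart.

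Across the transcriptome the exercise effect was small and spread over many genes. The median log2 change of 15096 tested genes was -0.012, with 47.4% of genes above and 52.6% below 0 (47.2% and 52.8% without exercised libraries 7, 8 and 10), and the values from the 5th to the 95th percentile ran from -0.447 to 0.364. edgeR's quasi-likelihood test called 0 genes (0% of those tested), and 22 genes shared its smallest adjusted p, 0.0804. At an unadjusted p under 0.05 it found 1901 genes, or 12.6%, with 894 higher (5.92%) and 1007 lower (6.67%) in exercised libraries. DESeq2 called 161 genes (1.07%), 70 higher (0.464%) and 91 lower (0.603%). limma voom with quality weights called 196 (1.3%), 106 higher (0.702%) and 90 lower (0.596%). Of these, 102 genes were called by both tools, 51 in each direction. All 102 kept their direction and an unadjusted edgeR p under 0.05 without exercised libraries 7, 8 and 10. Without sedentary library 4 edgeR called 43 genes, and 38 of them were among the 102. As the 102 were picked from these same libraries, neither count is added support. Large changes were rare: 128 genes had a change over 2-fold with an unadjusted p under 0.05, and 6 of these had a mean of at least 5 CPM.

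The genes with the smallest p among those higher in exercised libraries encode proteins of the nucleus, the cytoskeleton and the spindle. Mybbp1a, a nucleolar protein that takes part in ribosome production, had 171 to 201 CPM in sedentary libraries (median 187) and 219 to 243 in exercised libraries (median 228). Every exercised library lay above every sedentary library, and the change was 0.28 ± 0.06 log2 (SE, n = 8 sedentary and 7 exercised, edgeR adjusted p = 0.0804, DESeq2 6.76e-05). Without exercised libraries 7, 8 and 10 it was 0.28. Libraries were also separate in Dync1h1, the heavy chain of the microtubule motor dynein, with 651 to 774 CPM in sedentary libraries (median 693) and 793 to 891 in exercised libraries (median 867) and a change of 0.29 ± 0.06. The lowest exercised value of Dync1h1 came from library 5, which lay well below the other exercised libraries. Lgr6, a receptor for R-spondins that marks epithelial stem cells (chromosome 1, 134983301 to 135105276), was a low but separate gene at 4.66 to 7.80 CPM in sedentary libraries (median 7.42) and 8.63 to 13.97 in exercised libraries (median 10.4). Its change was 0.66 ± 0.14, and 0.65 without exercised libraries 7, 8 and 10.

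Several further genes in this group had overlapping or barely separate ranges. Syne3, which encodes nesprin-3 and links the nuclear envelope to the cytoskeleton, had 16.1 to 25.4 CPM in sedentary libraries (median 20.3) and 25.7 to 34.7 in exercised libraries (median 27.6). Those ranges do not overlap, with a change of 0.49 ± 0.10. The core fucosyltransferase gene Fut8 was separate too, at 178 to 230.4 CPM in sedentary libraries (median 199.6) and 236 to 271 in exercised libraries (median 256). In Tpr, a filament of the nuclear pore basket, the highest sedentary library at 255 CPM lay above the lowest exercised library at 252, and the change was 0.35 ± 0.07. Trove2, the RNA-binding Ro60 protein, stood at 0.34 ± 0.07 and the zinc finger gene Zc3h6 at 0.40 ± 0.09. Snord49a, a small nucleolar RNA of 72 bases, had 0.488 to 1.92 CPM in sedentary libraries (median 1.38) and 1.72 to 5.03 in exercised libraries (median 3.46), which is a low level with overlapping ranges. DESeq2 and limma voom each called all 15 genes of this ranking, while edgeR called none of them, with adjusted p-values of 0.0804 to 0.0927.

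**Figure D2:**
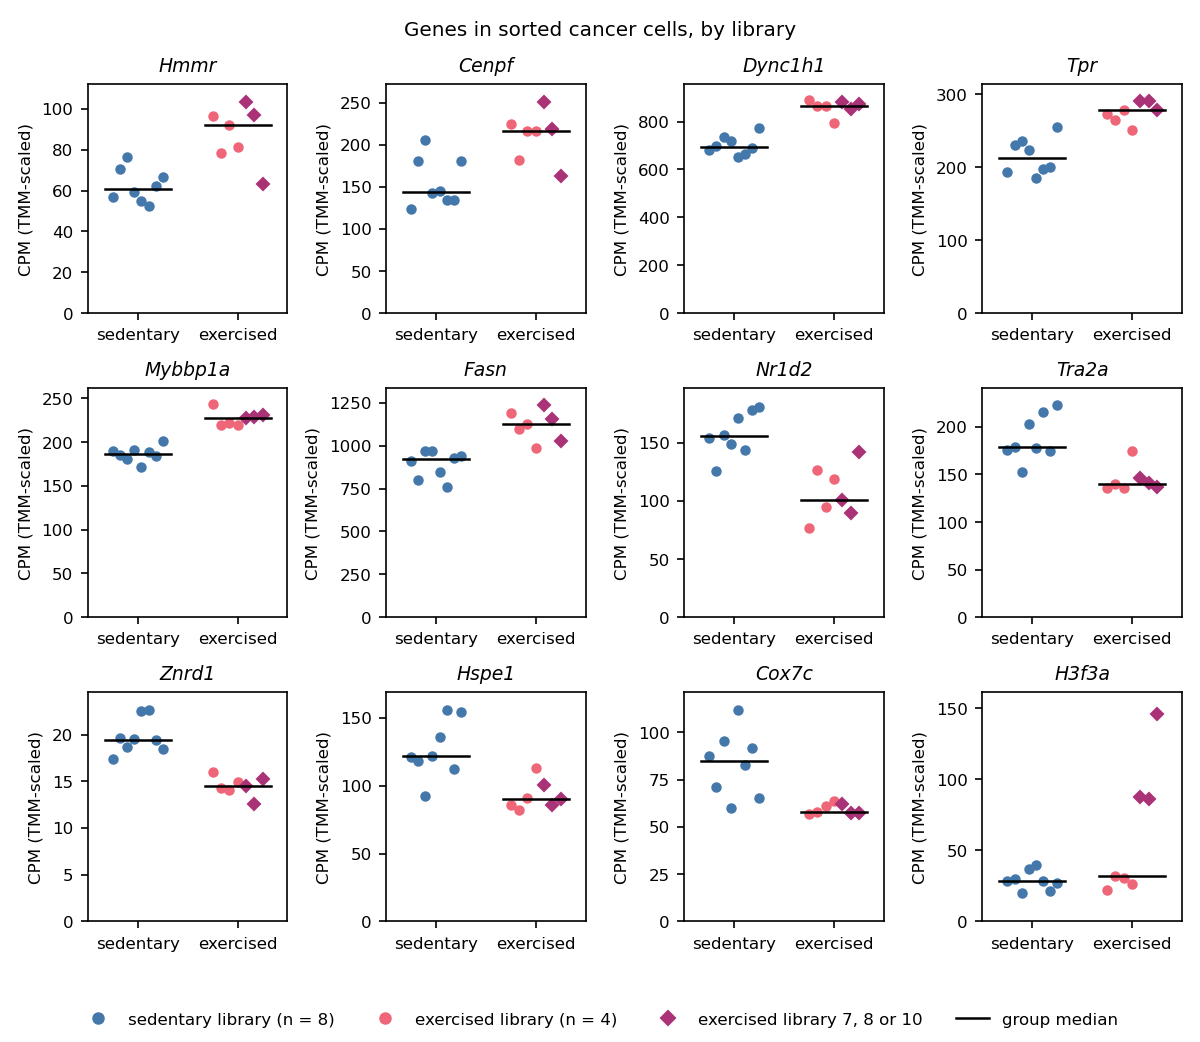
Each panel shows 1 gene and each point 1 library, with CPM scaled by TMM (trimmed mean of M-values) on a vertical axis that starts at 0 and the group median as a line. In Dync1h1, Mybbp1a, Fasn and Znrd1 the groups do not overlap. In H3f3a the 3 high points are exercised libraries 7, 8 and 10, and the other 4 exercised libraries lie within the sedentary range.

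Genes of G2 and M phase, which build the spindle and separate the chromosomes, were mostly above 0. Of 30 tested members 27 were above and 3 below 0, and the median was 0.21 against -0.012 for all genes. At an unadjusted p under 0.05, 18 were higher and 1 lower, against 5.92% and 6.67% of all genes. DESeq2 called 6 of them as higher (0.464% of all genes) and limma voom 7 (0.702%). Without exercised libraries 7, 8 and 10 the counts above and below 0 were 27 and 3 and the median was 0.25. The promoters of these genes are shown here because genes of this phase are known for 2 promoter motifs, the cell cycle homology region (TTTGAA) and the CCAAT box (CCAAT). In RefSeq windows of 250 bases before to 50 after a start on GRCm38.p6, searched on both strands, TTTGAA was found in 21 of 26 members with a window and in 14.4% of 10167 tested genes with one. CCAAT was found in 22 of 26 members and 42.6% of those genes. The 200 bases before the start are given 5′ to 3′ in the direction of the gene, with every match to either motif on either strand in capitals. They lie at chr7:135716380-135716579, minus strand (Mki67), chr11:99024190-99024389, minus strand (Top2a) and chr11:40733438-40733637, minus strand (Hmmr).
Mki67: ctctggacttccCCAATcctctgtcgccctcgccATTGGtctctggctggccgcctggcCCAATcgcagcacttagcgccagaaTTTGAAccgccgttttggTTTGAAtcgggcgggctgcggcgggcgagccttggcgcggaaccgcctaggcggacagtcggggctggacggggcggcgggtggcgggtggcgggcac
Top2a: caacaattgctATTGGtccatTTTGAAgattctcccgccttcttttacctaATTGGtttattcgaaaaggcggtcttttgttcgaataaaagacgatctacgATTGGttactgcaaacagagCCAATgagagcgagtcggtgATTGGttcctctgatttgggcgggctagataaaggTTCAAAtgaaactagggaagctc
Hmmr: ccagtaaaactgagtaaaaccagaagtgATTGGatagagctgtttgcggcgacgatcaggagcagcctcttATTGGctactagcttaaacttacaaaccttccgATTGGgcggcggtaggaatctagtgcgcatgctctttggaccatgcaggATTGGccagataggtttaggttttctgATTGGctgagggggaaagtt
Mki67 and Top2a each hold both motifs in these 200 bases, and Hmmr holds 5 inverted CCAAT boxes and no TTTGAA there. A match is a description of the letters only.

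The 3 genes with these promoters illustrate how the members varied. Hmmr, which binds hyaluronan and spindle microtubules, had 52.2 to 76.5 CPM in sedentary libraries (median 60.8) and 63.2 to 103 in exercised libraries (median 91.9). Exercised library 10 was the lowest of its group and lay below sedentary libraries 3, 4 and 10, while the other 6 exercised libraries lay above every sedentary one. Mki67, the proliferation antigen that coats mitotic chromosomes, had 144 to 220.5 CPM in sedentary libraries (median 193) and 196 to 265 in exercised libraries (median 237). Top2a, which untangles DNA before chromosomes separate, had 919 to 1315 CPM in sedentary libraries (median 997) and 1047 to 1676 in exercised libraries (median 1425). In each of these genes the exercised median lay above the sedentary median, and the ranges overlapped. Dlgap5, a spindle assembly protein, touched the sedentary range with 66.2 CPM in its lowest exercised and 66.2 in its highest sedentary library (change 0.39 ± 0.08). The kinetochore gene Cenpf stood at 0.43 ± 0.11, the spindle kinesin gene Kif20b at 0.37 ± 0.10 and the kinetochore motor gene Cenpe at 0.33 ± 0.10. Not all members had a positive value. Ube2c, a ubiquitin-conjugating enzyme of the anaphase-promoting complex, stood at -0.28 ± 0.10, and the mitotic kinase genes Cdk1 and Aurkb and the survivin gene Birc5 stood at -0.01 ± 0.09, 0.01 ± 0.10 and 0.01 ± 0.11.

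Motor proteins and chromosome structure proteins showed similar values. All 24 tested kinesin, dynein, dynactin and myosin genes were above 0, with a median of 0.15, and 10 of them were higher at an unadjusted p under 0.05 (5.92% of all genes). All 24 were above 0 without exercised libraries 7, 8 and 10 too, with a median of 0.12. The mean level of the motor list was 6.75 to 6.89 in sedentary libraries (median 6.83) and 6.95 to 7.06 in exercised libraries (median 6.96) log2 CPM. Of 62 lists with a mean level it was the 1 in which every exercised library lay above every sedentary library. Besides Dync1h1, the non-muscle myosin gene Myh10 was separate, with 191 to 231 CPM in sedentary libraries (median 211) and 239 to 279 in exercised libraries (median 252) and a change of 0.28 ± 0.06. Kif2c, a kinesin that takes microtubules apart, stood at 0.27 ± 0.08 and Myo18a at 0.22 ± 0.08 (0.12 in 12 libraries). At an unadjusted p under 0.05, 7 of 17 cohesin and condensin genes were higher (5.92% of all genes). Of the 17 genes 16 were above 0, with a median of 0.11 (0.15 without exercised libraries 7, 8 and 10). Among them the condensin subunit genes Ncaph and Smc2 stood at 0.23 ± 0.07 and 0.29 ± 0.10, the cohesin loader gene Nipbl at 0.23 ± 0.08, and the cohesin gene Smc1a at 0.23 ± 0.08 (0.13 without the 3 libraries). Members of these lists are long, with a median exon length of 5160 bases in G2 and M phase genes and 8130.5 in motor genes. With a correction for length and GC content the medians were 0.17, 0.09 and 0.06.

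Genes of DNA replication had values nearer 0. Of 29 S phase genes 21 were above 0, and the median was 0.05. At an unadjusted p under 0.05, 4 were higher and 2 lower, against 5.92% and 6.67% of all genes. Without exercised libraries 7, 8 and 10 the split was 15 above and 14 below 0 with a median of 0.01. The replicative helicase subunit gene Mcm3 stood at 0.20 ± 0.08 (0.13 in 12 libraries) and Ccne2, a cyclin that starts S phase, at -0.29 ± 0.12 (-0.13 in 12 libraries). Rrm2, a subunit of the enzyme that makes deoxynucleotides, stood at 0.20 ± 0.09 and Uhrf1, which maintains DNA methylation, at 0.17 ± 0.08. Checkpoint genes and CDK inhibitors had 4 of 20 members above 0 and a median of -0.09. Of these, the p53 targets Ccng1 and Mdm2 stood at 0.26 ± 0.07 and -0.21 ± 0.08, and Bax and Sesn2 at -0.17 ± 0.12 and -0.20 ± 0.11 (-0.31 in 12 libraries).

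Of 27 nuclear pore genes 19 were above 0, and the median was 0.05 (0.12 without exercised libraries 7, 8 and 10). At an unadjusted p under 0.05, 7 were higher and 0 lower, against 5.92% and 6.67% of all genes. After Tpr the smallest p belonged to Nup214, a component of the cytoplasmic face of the pore, at 0.31 ± 0.09, to Nup98 at 0.18 ± 0.06 and to the scaffold gene Nup133 at 0.18 ± 0.08. The nucleolar and RNA polymerase I list was divided, with a median of 0.04. At the same threshold 6 of its 28 members were higher and 2 lower, against the same shares of all genes. Mybbp1a, described above, the processing factor gene Rrp12 (0.23 ± 0.08) and the polymerase I catalytic subunit gene Polr1a (0.20 ± 0.07) were above 0. Znrd1, a small subunit of the same polymerase, was below 0 with no overlap, at 17.4 to 22.6 CPM in sedentary libraries (median 19.4) and 12.5 to 15.97 in exercised libraries (median 14.4) and a change of -0.45 ± 0.09. Its exons span 819 bases against 11871 for Polr1a.

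Among biosynthetic pathways, fatty acid synthesis contained members with small p-values in both directions. Fasn, the fatty acid synthase that makes palmitate, had 759 to 969 CPM in sedentary libraries (median 920.0) and 986 to 1235 in exercised libraries (median 1124), with no overlap and a change of 0.33 ± 0.07 (edgeR adjusted p = 0.0927, DESeq2 0.00409). Acaca, the acetyl-CoA carboxylase that supplies its substrate, had 53.2 to 70.3 CPM in sedentary libraries (median 59.95) and 67.8 to 80.1 in exercised libraries (median 75.2). The lowest exercised library was below the highest sedentary one, and the change was 0.29 ± 0.07. The desaturase gene Scd1 stood at 0.37 ± 0.13, while Thrsp, a small regulator of lipid synthesis, stood at -0.72 ± 0.22. Over 19 members the median was 0.01, with 10 above and 9 below 0. Cholesterol synthesis had 18 of 23 members above 0 and a median of 0.07 (0.03 without exercised libraries 7, 8 and 10). Exercised library 7 was the highest in that list, at 5.81 log2 CPM. The reductase gene Dhcr7, an enzyme late in that pathway, stood at 0.17 ± 0.07, Hsd17b7 at 0.17 ± 0.10, and Fdps, which makes farnesyl pyrophosphate, at -0.31 ± 0.19 (-0.21 in 12 libraries). In one-carbon and nucleotide synthesis the median was 0.03. At an unadjusted p under 0.05, 4 of 22 genes were higher and 0 lower (5.92% and 6.67% of all genes). Among them were the folate enzyme gene Mthfd1 (0.24 ± 0.07), the purine genes Gart (0.23 ± 0.08) and Pfas (0.17 ± 0.07) and Cad (0.28 ± 0.10), which starts pyrimidine synthesis. Among 22 glycosyltransferases and glycan-processing enzymes 14 were above 0, with a median of 0.02, and 5 were higher and 0 lower at an unadjusted p under 0.05, against 5.92% and 6.67% of all genes. Beside Fut8 the Golgi mannosidase genes Man2a1 and Man1a stood at 0.31 ± 0.08 and 0.16 ± 0.07 and the fucosyltransferase gene Fut10 at 0.26 ± 0.12.

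The genes with the smallest p among those lower in exercised libraries had overlapping libraries in most cases. Nap1l2, of the nucleosome assembly protein family, had 8.13 to 13.8 CPM in sedentary libraries (median 9.45) and 5.55 to 7.61 in exercised libraries (median 6.06), with no overlap and a change of -0.68 ± 0.13 (edgeR adjusted p = 0.0804). The RNA-binding protein gene Rbm12b2 was separate as well, at 32.6 to 46.4 CPM in sedentary libraries (median 37.2) and 25.9 to 31.6 in exercised libraries (median 27.1) and a change of -0.43 ± 0.09. In Tnfrsf25, a receptor of the TNF family also known as death receptor 3, exercised library 5 overlapped the sedentary range, which gave 30.6 to 56.3 CPM in sedentary libraries (median 38.1) and 17.6 to 34.2 in exercised libraries (median 22.9) and a change of -0.77 ± 0.15. Without that library edgeR gave -0.872 and an adjusted p of 0.0208, against 0.0804 with all 15 libraries. The library was picked because it overlapped, so the smaller p is no added support. Tra2a, a regulator of alternative splicing (chromosome 6, 49243924 to 49264033), showed the same single overlapping library, with 175 CPM in exercised library 5 and 135.8 to 146 in the other 6. Its sedentary range was 153 to 223 and its change -0.38 ± 0.08. The GABA receptor gene Gabre, Cdk2ap1, which binds the kinase CDK2, and the choline kinase gene Chka stood at -0.41 ± 0.08, -0.42 ± 0.08 and -0.55 ± 0.12. Ftl1, the ferritin light chain that stores iron, had 298 to 609 CPM in sedentary libraries (median 468) and 212 to 353 in exercised libraries (median 277). As Ftl1 has near-identical copies, reads may be shared and its value of -0.69 ± 0.15 is uncertain. The signal peptidase subunit gene Sec11a and the genes Fam133b and Igip stood at -0.39 ± 0.09, -0.37 ± 0.08 and -0.46 ± 0.11. DESeq2 called all 15 genes of this ranking, and limma voom all but Ftl1 (adjusted p = 0.07).

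In the circadian clock the members with the smallest p were the REV-ERB beta gene Nr1d2, the PER repressor gene Per3 and the output factor genes Dbp and Tef, all below 0. Of 21 genes 15 were below 0, 6 were lower and 0 higher at an unadjusted p under 0.05 (6.67% and 5.92% of all genes), and the median was -0.13. DESeq2 called 4 of them as lower (0.603% of all genes) and limma voom 3 (0.596%). Without exercised libraries 7, 8 and 10 the median was -0.30 with 16 below 0. Nr1d2, which encodes the repressor REV-ERB beta (chromosome 14, 18204054 to 18239127), had 126 to 180.4 CPM in sedentary libraries (median 155) and 76.8 to 142 in exercised libraries (median 101). Its lower sedentary values overlapped exercised libraries 2 and 10, and the change was -0.56 ± 0.11. The output factor gene Dbp had 5.13 to 14.1 CPM in sedentary libraries (median 8.78) and 1.98 to 8.69 in exercised libraries (median 3.14) and a change of -1.06 ± 0.28, and its paralogue Tef stood at -0.50 ± 0.13 and the repressor gene Per3 at -0.45 ± 0.11. Nr1d1, which encodes REV-ERB alpha, had 18.6 CPM in exercised library 10 against 10.2 or less in the other exercised libraries, and 5.32 to 19.7 in sedentary libraries. Not all members lay below 0. Of the activators, Arntl, which encodes BMAL1, stood at 0.14 ± 0.09 and Clock at 0.03 ± 0.08, and the repressors Cry1 and Cry2 at 0.11 ± 0.11 and 0.001 ± 0.11. The promoter of Per3 is shown because it held the only D-box of the list (TTATGTAA, the site of DBP and TEF), in 1 of 16 members with a window against 0.7% of genes. Its 200 bases before the start (chr4:151044666-151044865, minus strand) carry the match in capitals.
Per3: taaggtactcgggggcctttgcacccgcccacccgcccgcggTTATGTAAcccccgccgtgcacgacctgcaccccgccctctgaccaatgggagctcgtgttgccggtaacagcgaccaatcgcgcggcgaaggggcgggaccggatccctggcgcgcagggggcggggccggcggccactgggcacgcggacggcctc
The E-box of the activators (CACGTG) was found in 5 of 16 members and 11.6% of genes. The time of day of sampling is not in the labels, and its part in these values was not tested.

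The heat shock levels of the groups overlapped widely. Of 20 chaperones and cofactors 16 were below 0, 3 at an unadjusted p under 0.05 (6.67% of all genes). The median was -0.22 (-0.38 without exercised libraries 7, 8 and 10). The mean level was 6.71 to 8.03 in sedentary libraries (median 7.51) and 6.75 to 7.57 in exercised libraries (median 6.96) log2 CPM. Hspe1, the small subunit of the mitochondrial chaperonin (chromosome 1, 55088132 to 55091307), had 92.3 to 156 CPM in sedentary libraries (median 122) and 81.8 to 113 in exercised libraries (median 90.02). Its change was -0.45 ± 0.10 (edgeR adjusted p = 0.089, DESeq2 0.0105), and sedentary library 4, at 92.3 CPM, lay inside the exercised range. Hspb1, a small chaperone that holds unfolded proteins, had 70.4 to 237 CPM in sedentary libraries (median 114) and 62.9 to 115 in exercised libraries (median 67.2), and the cochaperone gene Bag3 had 50.5 to 155 CPM in sedentary libraries (median 91.9) and 41.8 to 81.5 in exercised libraries (median 52.3). Hsph1, a chaperone that recharges HSP70, stood at -0.69 ± 0.32. The inducible chaperone gene Hspa1a ran from 1.36 to 54.1 CPM within the sedentary group alone. Its near-identical copy Hspa1b may share its reads. The Hspb1 promoter is shown because it holds the heat shock element, given here as GAANNTTC with N any base, found in 10 of 15 members with a window and 6.9% of genes. The 200 bases before its start (chr5:135887719-135887918, plus strand) hold 2 matches, with their fixed letters in capitals.
Hspb1: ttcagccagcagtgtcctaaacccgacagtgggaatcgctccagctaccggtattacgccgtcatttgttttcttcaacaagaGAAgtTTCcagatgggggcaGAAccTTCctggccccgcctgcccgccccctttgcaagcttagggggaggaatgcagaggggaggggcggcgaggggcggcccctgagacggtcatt

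Immediate early genes, which respond to growth factors and to handling within minutes, followed the same libraries. Of 30 members 25 were below 0, 5 at an unadjusted p under 0.05 (6.67% of all genes). The median was -0.20 (-0.36 without exercised libraries 7, 8 and 10). Egr3 and Fosl2, both transcription factors, stood at -1.03 ± 0.42 (-1.71 in 12 libraries) and -0.22 ± 0.09, the phosphatase gene Dusp5 at -0.41 ± 0.18 and Ier5 at -0.35 ± 0.16. Fos and Egr1, the most familiar members, had -0.25 ± 0.22 and -0.49 ± 0.28, and Dusp1 went the other way at 0.30 ± 0.15. Single libraries in each group held the opposite end of several lists. Exercised library 10 had the highest heat shock, immediate early and clock levels of its group (7.57, 7.01 and 5.43 log2 CPM) and its lowest G2 and M phase level (6.60). Sedentary library 4 had the lowest heat shock, immediate early and clock levels of its group (6.71, 5.86 and 5.04) and its highest G2 and M phase level (6.94). In these 4 lists, library 10 of the exercised group thus lay toward the sedentary side and library 4 of the sedentary group toward the exercised side. In the heat shock list exercised libraries 5 and 7 lay close to library 10, at 7.55 and 7.50. The part of sample handling in these lists was not tested.

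**Figure D3:**
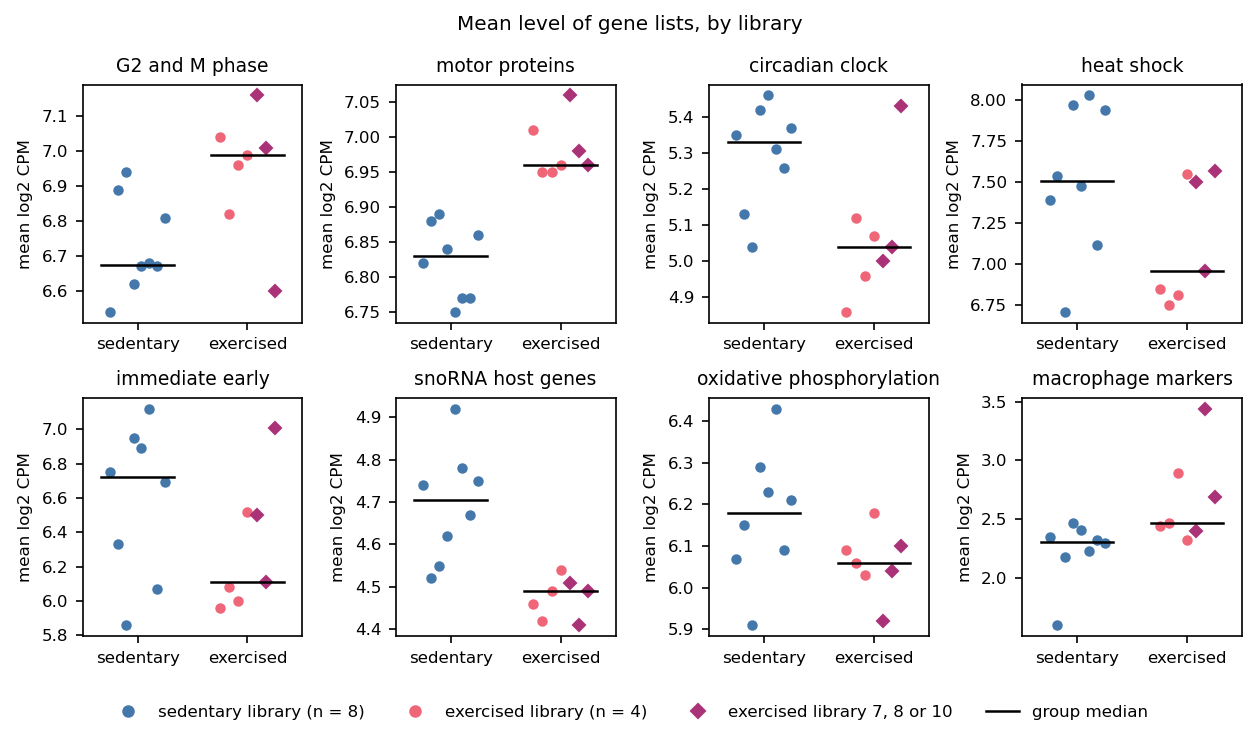
Each panel shows the mean log2 CPM of the tested members of 1 gene list in each library, on an axis that does not start at 0, with group medians as lines. The motor protein levels of the groups do not overlap. In the clock, heat shock and immediate early panels exercised library 10 (the highest diamond) and sedentary library 4 (the lowest circle of its group) lie at the far end from their own group median. In the heat shock panel exercised libraries 5 and 7 lie close to library 10.

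Genes of the protein synthesis and energy machinery were mostly slightly below 0. Of 33 cytosolic ribosomal protein genes 30 were below 0, 4 at an unadjusted p under 0.05 (6.67% of all genes), with a median of -0.10. Rps14, a protein of the small subunit, had 336 to 561 CPM in sedentary libraries (median 416) and 250.2 to 382 in exercised libraries (median 316) and a change of -0.49 ± 0.12. Rps6, Rpl32 and Rpl11 stood at -0.26 ± 0.09, -0.30 ± 0.11 and -0.29 ± 0.13. Ribosomal protein genes have many processed pseudogenes that may share their reads, and pseudogene counts differed in exercised libraries 7, 8 and 10, without which the Rps14 value was -0.41 and the list median -0.13. With 1 library left out that median ran from -0.19 without sedentary library 4 to -0.04 without sedentary library 5. Nuclear genes of oxidative phosphorylation had 33 of 42 members below 0 and a median of -0.15. At an unadjusted p under 0.05, 10 were lower and 1 higher, against 6.67% and 5.92% of all genes. Cox7c, a small subunit of cytochrome c oxidase (chromosome 13, 86044816 to 86046904), had 59.96 to 112 CPM in sedentary libraries (median 85.1) and 56.8 to 63.8 in exercised libraries (median 57.9). Exercised libraries were tightly grouped at the low end of the sedentary range, and the change was -0.48 ± 0.10. Cox4i1, another oxidase subunit, stood at -0.29 ± 0.09, the ATP synthase subunit gene Atp5k at -0.38 ± 0.14 and the complex I gene Ndufa2 at -0.33 ± 0.13, while the complex III core gene Uqcrc1 stood at 0.27 ± 0.10 (0.12 in 12 libraries). Without exercised libraries 7, 8 and 10 the split was 28 below and 14 above 0 with a median of -0.06, and with the length and GC correction the median was -0.08. Mitochondrial ribosomal genes had a median of -0.06 and lysosome and autophagy genes of -0.09 (-0.03 and -0.08 without the 3 libraries), with 24 of 34 and 26 of 31 below 0. Their examples were the small subunit genes Mrps28 (-0.45 ± 0.14), Mrps23 (-0.26 ± 0.08) and Mrps21 (-0.43 ± 0.16) and the large subunit gene Mrpl28 (-0.20 ± 0.09). In the lysosome list the membrane protein gene Lamp1 stood at -0.20 ± 0.08 (-0.11 in 12 libraries), the autophagy receptor gene Sqstm1 at -0.35 ± 0.14, the autophagosome gene Map1lc3a at -0.29 ± 0.13 and the calcium channel gene Mcoln1 at -0.16 ± 0.08.

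Host genes of small nucleolar RNAs, whose introns carry the guides that modify ribosomal RNA, had a median of -0.27. Of 17 such genes 16 were below 0, 5 at an unadjusted p under 0.05 (6.67% of all genes). Their mean level was 4.52 to 4.92 in sedentary libraries (median 4.70) and 4.41 to 4.54 in exercised libraries (median 4.49) log2 CPM, so the groups touched only at 1 edge. The host gene 1110038B12Rik had the smallest p of all genes, at 69.1 to 102 CPM in sedentary libraries (median 91.95) and 52.3 to 72.4 in exercised libraries (median 56.05) and a change of -0.57 ± 0.10 (edgeR adjusted p = 0.0804). Its lowest sedentary library lay below its highest exercised one. Snhg12 stood at -0.37 ± 0.11, Zfas1 at -0.30 ± 0.10 and Snhg20 at -0.33 ± 0.14, while Gas5, the best known host, stood at -0.14 ± 0.10. Without exercised libraries 7, 8 and 10 the list median was -0.21 with 16 of 17 below 0. The snoRNA gene Snord49a lay above 0, as given above. As polyA RNA was sequenced, whether its reads come from the snoRNA itself was not tested.

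Histone genes with polyA transcripts held small p-values in both directions. Of 17 genes 3 were higher and 7 lower at an unadjusted p under 0.05, against 5.92% and 6.67% of all genes. H2afv, a variant of histone H2A, had 47.8 to 63.2 CPM in sedentary libraries (median 50.8) and 39.7 to 49.5 in exercised libraries (median 41.2) and a change of -0.32 ± 0.08, and Hist3h2a and the DNA damage variant gene H2afx stood at -0.86 ± 0.24 and -0.28 ± 0.11. H3f3a, which encodes the replacement histone H3.3, had a change of 1.08 ± 0.39. Leaving out predicted and clone-named genes, it was the largest positive change at an unadjusted p under 0.05 and a mean of at least 5 CPM. That value rests on exercised libraries 7, 8 and 10, which had 85.8 to 146 CPM, while the other 4 exercised libraries had 22.3 to 31.8 and the sedentary libraries 19.97 to 39.5. Without the 3 libraries the change was -0.06 (edgeR adjusted p = 0.925). The processed pseudogene Gm8643 went the other way in the same libraries, with 0.0441 to 0.0827 CPM against 1.9 to 3.62 in the other exercised and 3.41 to 18.6 in sedentary libraries. Trf, which encodes the iron carrier transferrin, had the largest negative change under the same limits and exclusions (-1.49 ± 0.47). It also had its lowest values in those libraries, at 18.4 to 51.6 CPM against 70.1 to 125 in the other exercised and 103 to 379 in sedentary libraries. Without the 3 libraries its change was -0.97.

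The other genes with the largest changes included several of leukocytes. Il1rl1, the receptor of interleukin 33, had 4.18 to 9.42 CPM in sedentary libraries (median 6.23) and 3.51 to 39.6 in exercised libraries (median 7.93), where the highest value is that of exercised library 5 alone. Its change was 1.01 ± 0.44, and 0.40 without that library. The chemokine receptor gene Ccr2 (0.87 ± 0.33), the macrophage gene Mpeg1 (0.82 ± 0.21) and the leukocyte actin-bundling gene Lcp1 (0.70 ± 0.30, or 0.47 in 12 libraries) were above 0. With the pan-leukocyte covariate described below they stood at 0.34, 0.33 and -0.019. Lcp1 is itself among the genes averaged in that covariate, so its fall to near 0 was built in. Rasd1, a small GTPase induced by glucocorticoids, had 32.8 to 73.5 CPM in sedentary libraries (median 55.8) and 46.2 to 149 in exercised libraries (median 88.5) and stood at 0.72 ± 0.22. On the other side were the GTPase gene Gem (-0.76 ± 0.21), called by DESeq2 (adjusted p = 0.0244) and limma voom (0.0186), and the mitochondrial flavoprotein gene Etfb (-0.76 ± 0.22, or -0.51 in 12 libraries), called by DESeq2 (adjusted p = 0.0412) and not by limma voom (0.146). Rnu3a, the U3 small nucleolar RNA that helps to process ribosomal RNA, stood at 0.70 ± 0.21. As for Snord49a, the source of its reads was not tested.

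Leukocyte genes were far lower in these sorted cells than in the TME, and most lay above 0. Of 15 macrophage markers 12 were above 0 and 6 higher at an unadjusted p under 0.05 (5.92% of all genes), with a median of 0.47. Adgre1, the macrophage marker F4/80, had 0.811 to 2.22 CPM in sedentary libraries (median 1.72) and 2.17 to 7.07 in exercised libraries (median 3.15), and its highest value came from exercised library 8. The change of Adgre1 was 1.22 ± 0.27. It was 0.997 without exercised library 8 and 1.12 without libraries 7, 8 and 10. With the pan-leukocyte covariate described below it was 0.66. MHC class II genes had 9 of 9 above 0 and a median of 0.43, among them the invariant chain gene Cd74 at 0.56 ± 0.24 (0.26 in 12 libraries), the peptide-loading gene H2-DMb1 at 0.54 ± 0.32 (0.19 in 12 libraries), the protease gene Ctss at 0.53 ± 0.23 (0.34 in 12 libraries) and the master regulator gene Ciita at 0.43 ± 0.20 (0.10 in 12 libraries). The median of the pan-leukocyte list was 0.48, and it was 0.22 without exercised library 8 alone and 0.27 without libraries 7, 8 and 10. The macrophage median was 0.29 without exercised library 8. All 15 macrophage markers were detected, and they summed to 93.27 to 148.5 CPM in sedentary, 111.4 to 216.4 in exercised and 860 to 4586 in TME libraries, with exercised library 8 the highest of the cancer libraries. Of 17 T and natural killer cell markers 6 passed the filter on low counts, and the list summed to 4.937 to 12.39 CPM in sedentary and 7.415 to 23.89 in exercised libraries. The part of leukocytes left in the sort was not tested beyond the following fit. With the pan-leukocyte level added to the fit as a covariate the medians were -0.002 for macrophage and 0.01 for MHC class II genes, and without exercised libraries 7, 8 and 10 they were 0.20 and 0.10. In the same covariate fit G2 and M phase genes had a median of 0.26, motor genes 0.15 and clock genes -0.11. Neutrophil markers had a median of 0.39, and -0.26 without the 3 libraries.

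Interferon and antigen presentation genes in the sorted libraries, which also held leukocyte transcripts, were examined in 3 lists. Only the interferon-gamma and MHC class I medians changed sign without exercised libraries 7, 8 and 10. With the pan-leukocyte covariate the interferon-gamma, type 1 interferon and MHC class I medians were 0.03, 0.08 and -0.07, against 0.10, 0.14 and 0.04 without it. Interferon-gamma response genes had 17 of 26 above 0 and a median of 0.10, which was -0.09 without exercised libraries 7, 8 and 10. After Ciita, the smallest p-values belonged to the GTPase gene Irgm1 (0.25 ± 0.12, or 0.15 in 12 libraries), the class I regulator gene Nlrc5 (0.30 ± 0.17, or 0.05 in 12 libraries) and the chemokine gene Cxcl9 (0.29 ± 0.17, or 0.12 in 12 libraries). Type 1 interferon genes had a median of 0.14 (0.11 without those libraries). Of 24 members 2 were higher and 1 lower at an unadjusted p under 0.05, against 5.92% and 6.67% of all genes. The RNA sensor gene Ifih1 stood at 0.34 ± 0.16 and the ubiquitin-like gene Isg15 at -0.30 ± 0.13. The RNA-degrading pathway gene Oas1a stood at 0.52 ± 0.21 (0.27 in 12 libraries) and the tetherin gene Bst2 at -0.37 ± 0.19. MHC class I genes had 9 of 17 above 0 and a median of 0.04. Without those 3 libraries 15 of 17 were below 0 and the median was -0.16. They had no member at an unadjusted p under 0.05 in either direction, with the peptide trimmer gene Erap1 at 0.13 ± 0.08 (0.06 in 12 libraries), the chaperone gene Calr at 0.10 ± 0.09 (-0.03 in 12 libraries) and H2-T23 at -0.17 ± 0.19 (-0.35 in 12 libraries). Among ligands of immune receptors, the NKG2D ligand gene Ulbp1 stood at 0.49 ± 0.18, the checkpoint gene Vsir at 0.55 ± 0.18, the costimulatory ligand gene Tnfsf9 at -0.31 ± 0.14 and the death ligand gene Tnfsf10 at 0.25 ± 0.13. The death receptor gene Fas stood at -0.61 ± 0.28, the RANK gene Tnfrsf11a at 0.55 ± 0.21 and the lymphotoxin receptor gene Ltbr at -0.18 ± 0.09.

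NF-kappaB genes and cytokines lay mostly below 0, and chemokine ligands mostly above. In the NF-kappaB list 14 of 21 genes were below 0, with a median of -0.13 (-0.25 without exercised libraries 7, 8 and 10), and 3 were lower and 0 higher at an unadjusted p under 0.05, against 6.67% and 5.92% of all genes. Its smallest p belonged to Il6, given below, followed by Bcl3 at -0.41 ± 0.15 and the subunit gene Rel at -0.25 ± 0.11. The chemokine gene Cxcl1 came next, at -0.72 ± 0.35 (edgeR unadjusted p = 0.0613). In the cytokine and growth factor list 23 of 35 genes were below 0, with a median of -0.10 (-0.20 without exercised libraries 7, 8 and 10). Of 22 chemokine ligand genes 15 were above 0, with a median of 0.10 (0.07, and 12 above 0, without them). The chemokine median was 0.03 without exercised library 8 alone and -0.10 with the pan-leukocyte covariate. Il6, an inflammatory cytokine, had 0.261 to 2.75 CPM in sedentary libraries (median 1.66) and 0.165 to 1.40 in exercised libraries (median 0.605) and a change of -1.27 ± 0.42, and the macrophage growth factor gene Csf1 stood at -0.24 ± 0.08. The EGF receptor ligand genes Areg and Btc stood at -0.53 ± 0.25 and 0.50 ± 0.19 (0.27 in 12 libraries). In the adrenergic and insulin pathway list, whose hormones change with exercise, the median was -0.03 (-0.06 without exercised libraries 7, 8 and 10). The IGF2 receptor gene Igf2r stood at 0.20 ± 0.08, and the binding protein genes Igfbp2 and Igfbp3 at -0.94 ± 0.38 and -1.23 ± 0.57. Both binding protein genes were low, and their exercised ranges lay within the sedentary ones. Igfbp2 had 0.187 to 4.37 CPM in sedentary and 0.89 to 1.88 in exercised libraries, and Igfbp3 had 0.0468 to 3.86 and 0.313 to 1.675. The haem oxygenase gene Hmox1, of the antioxidant response, stood at -0.68 ± 0.21, and the glutathione genes Gsr and Gclc at 0.17 ± 0.09 and -0.14 ± 0.07. Epithelial genes had 8 of 10 members below 0 and a median of -0.29 (-0.08 without sedentary library 5), with the claudin gene Cldn3 at -0.32 ± 0.18 and the transcription factor gene Grhl2 at 0.55 ± 0.29.

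Several other pathways had medians within 0.1 of that of all genes in the 15 libraries. Unfolded protein response genes of the endoplasmic reticulum had a median of -0.004, proteasome genes 0.02, fatty acid oxidation genes -0.005, antioxidant genes -0.01 and matrix metalloproteinases with their inhibitors -0.002. TGF-beta pathway genes stood at 0.01 and collagen and matrix genes at -0.03. These values are from all 15 libraries, and without exercised libraries 7, 8 and 10 those lists stood at -0.06, 0.02, -0.03, -0.002, -0.05, -0.05 and -0.09 in the same order. Glycolysis and hypoxia genes had medians of -0.05 and -0.08, with 12 of 20 and 13 of 17 members below 0. Without the 3 libraries their medians were -0.12 and -0.24, with 16 and 14 below 0. Targets of the ATF4 stress response had 16 of 20 below 0, none at an unadjusted p under 0.05, and a median of -0.10 (-0.15 without them). Glucocorticoid targets, which report on a hormone released in exercise and in stress, had a median of -0.04.

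**Figure D4:**
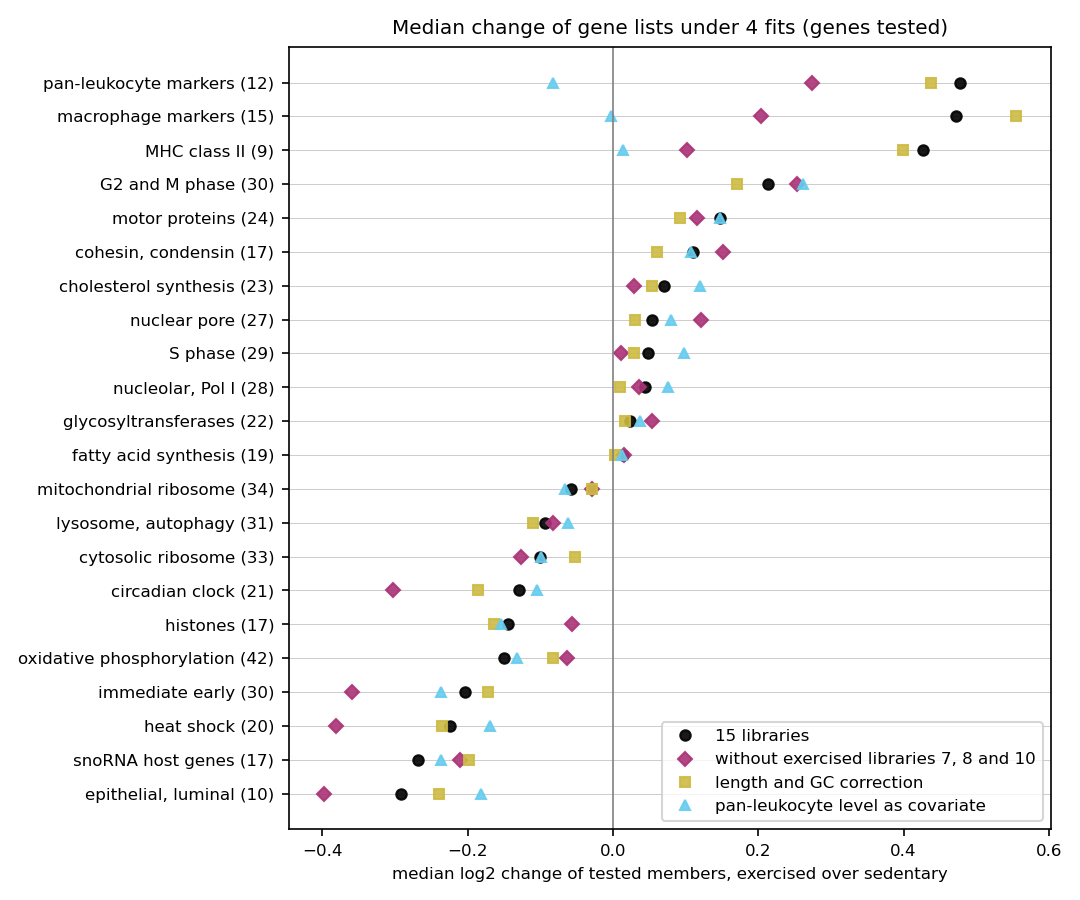
Each row is 1 gene list with its number of tested genes, and each symbol is the median log2 change of its members (exercised over sedentary) in 1 of 4 fits. The macrophage and MHC class II medians move to near 0 with the pan-leukocyte covariate. The pan-leukocyte median does so by construction, as the mean level of the same genes is the covariate. The clock, heat shock and immediate early medians lie further from 0 without exercised libraries 7, 8 and 10. The G2 and M phase median stays between 0.17 and 0.26.

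The exercise effect was graded by gene length. In 5 equal bins of exon length the median log2 change ran from -0.098 in the shortest genes to 0.044 in the longest, and it was -0.047, -0.013 and 0.006 in the bins between. Genes higher at an unadjusted p under 0.05 made up 2.4% of the shortest and 11.6% of the longest bin, and genes lower made up 11.2% and 3%. Across 14643 genes with a known length, which are not independent, the Spearman correlation of the change with length was 0.23, and 0.222 without exercised libraries 7, 8 and 10. The trend also differed between libraries of a group. The median deviation of the longest less that of the shortest bin was -0.333 to 0.201 log2 in sedentary libraries, with the ends in libraries 7 and 4, and -0.032 to 0.125 in exercised libraries. With an offset for length and GC content the bin medians were -0.022, -0.025, -0.028, -0.024 and -0.007. Among the 102 genes called by both DESeq2 and limma voom the median exon length was 7454 bases for the higher and 3727 for the lower genes. All 102 kept an unadjusted p under 0.05 with that offset. They were picked from the same libraries, so that count is no added support. RNA quality was not given, and its part in the length trend was not tested.

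**Figure D5:**
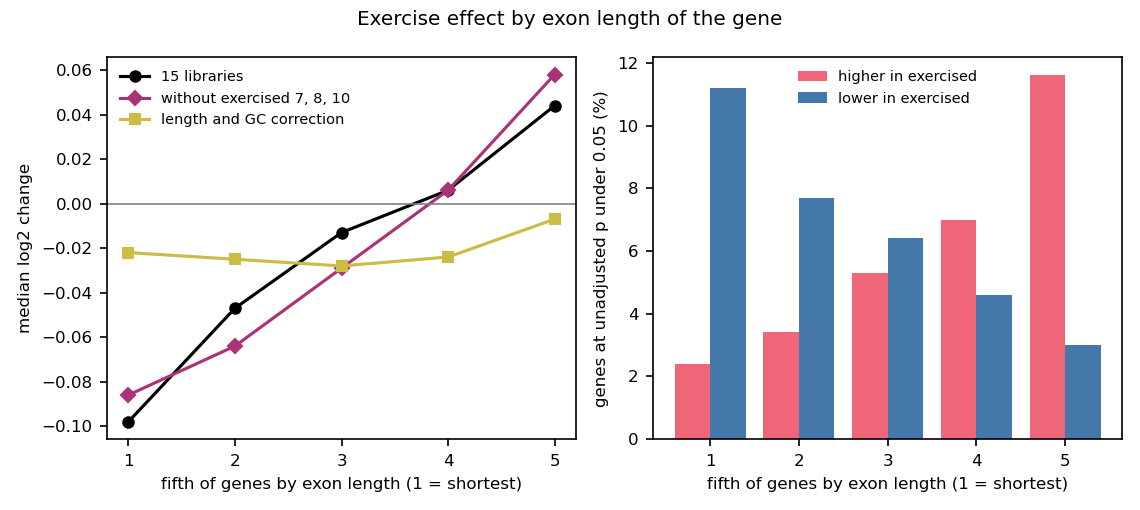
Genes were sorted into 5 equal bins by exon length (1 is the shortest). The left panel gives the median log2 change in each bin in 3 fits, and the right panel the percentage of genes at an unadjusted p under 0.05 in each direction. The median rises from -0.098 to 0.044 across the bins with all 15 libraries and is nearly level with the length and GC correction.

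In 40 genes (0.265% of those tested) the exercised and sedentary libraries did not overlap, 28 higher (0.185%) and 12 lower (0.0795%). The higher genes beyond those above included the chromatin remodelling subunit gene Smarcc1 (0.29 ± 0.07), the actin crosslinker gene Flna (0.21 ± 0.06) and the fatty acid activating enzyme gene Acsl1 (0.29 ± 0.09). Among the lower genes were the mRNA export receptor gene Nxf1, with 182 to 206 CPM in sedentary libraries (median 195) and 169 to 177 in exercised libraries (median 171), the transcription coactivator gene Sub1 (-0.31 ± 0.07) and the GTPase-activating protein gene Gmip (-0.20 ± 0.07). Smarcc1, Flna and Acsl1 were chosen with their values in view. The separation in these genes was narrow, as in Nxf1, where the lowest sedentary and highest exercised libraries were 182 and 177 CPM.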

How the data were processed

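RNA was measured by sequencing polyA RNA of sorted cells. The authors deposited raw read counts per gene symbol for all 23 libraries, made with STAR and featureCounts on mm10 per the submitters' processing notes. Not given in the sources used here are the versions, the gene annotation and the strand setting, so reads of a gene and of one that overlaps it in antisense cannot be told apart. Of 48397 symbols 16422 had no count in any library. Lengths, types and coordinates were matched by symbol to GENCODE M21 (96.01% of symbols).

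Exercised and sedentary cancer libraries were compared with edgeR 4.0.16 in R 4.3.3 (filterByExpr, TMM, robust quasi-likelihood test, Benjamini-Hochberg adjustment, threshold 0.05), which kept 15096 genes. SE is the log2 change divided by the root of F. Unless another tool is named, values are from this fit. For the level of a list, log2 CPM (prior count 2) was averaged over the tested members. DESeq2 1.42.0, limma 3.58.1 voom, sva 3.50.0 and other alternatives were run, and the analysis code was tested on simulated data.

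The text names, for each direction, the 15 genes of smallest p with at least 1 CPM on average, the 8 with the largest change (unadjusted p under 0.05, at least 5 CPM), the 6 with the widest gap between groups, and up to 4 of smallest p in a list. Predicted and clone-named genes were left out of the first 3 rankings, and a few genes that the rule names are not reported here. Mki67, Top2a, Cenpe, Ube2c, Cdk1, Aurkb, Birc5, Arntl, Clock, Cry1, Cry2, Fos, Egr1, Dusp1, Gas5, Hspa1a, Gm8643 and the cell identity genes lie outside this rule and were chosen after their values were seen. The gene lists and the comparison itself were chosen with earlier results of these data known. Promoter sequences are from RefSeq on GRCm38.p6. The labels do not say whether replicate numbers mark shared animals or days. Of 5 numbers present in both groups, 1 had a correlation of deviations over 0.1 (range -0.0729 to 0.1423), so the numbers were not taken as pairs.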

Additional observations from a re-analysis of the deposited data

Results flagged for a closer look

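In 16 of 174 groups of 7 or 8 values, 1 library lay apart from the rest of its own group by Dixon's criterion, which chance gives in about 1 in 20. In exercised library 5, Dync1h1 was lowest at 793 CPM (next library 854), and 3 genes were highest: Il1rl1 at 39.6 (next 15.8), Tra2a at 175 (next 146) and Igip at 18 (next 14.3). In exercised library 10, Nr1d1 was highest at 18.6 (next 10.2) and Sub1 lowest at 107 (next 130). The cohesin and condensin level of that library was lowest, at 7.09 log2 CPM (next 7.24), and its level of CDK inhibitor and checkpoint genes highest, at 5.84 (next 5.6). The cholesterol synthesis level was highest in exercised library 7, at 5.81 log2 CPM (next 5.44), and the endothelial level lowest in exercised library 1, at 1.21 (next 1.52).

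Among sedentary libraries, Zc3h6 was highest in library 10 at 19.6 CPM (next 16.7). Thrsp was highest in library 5, at 18.3 (next 8.24). Library 3 had the lowest pan-leukocyte and macrophage levels, at 1.03 (next 1.81) and 1.6 log2 CPM (next 2.18). Library 4 had the lowest endothelial and fibroblast levels, at 1.09 (next 1.75) and 3.98 log2 CPM (next 4.52).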

How the results depend on the processing

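The number of genes called depended on the test. It was 0 with edgeR and remained 0 without the robust option, with RLE scaling, with a minimum mean of 1 CPM, with the pan-leukocyte covariate and without exercised libraries 7, 8 and 10, an alternative chosen after seeing the data. It was 161 with DESeq2, 196 with limma voom, 153 with 1 surrogate variable, 28 without a filter (18 higher and 10 lower), 1 with all 23 libraries in 1 fit and 1 with the length and GC correction. Leaving out 1 library gave 0 to 43 calls: 43 without sedentary library 4, 6 without exercised library 10, 3 without exercised library 5, 1 without sedentary library 3 and 0 otherwise. Genes at an unadjusted p under 0.05 numbered 1901, against 2906 with limma voom, 3997 without a filter and 1488 to 2403 with 1 library left out. Of these, 894 were higher and 1007 lower, against 1125 and 621 with all 23 libraries and 746 and 1220 with the length and GC correction. Genes without overlap numbered 40, against 43 to 86 with 1 library left out and 250 without exercised libraries 7, 8 and 10, where fewer libraries are compared. With the replicate number as a block, which drops libraries without a partner number from the estimate of the exercise effect, 0 genes were called and 581 had an unadjusted p under 0.05, or 679 with the length and GC correction as well. Of 4283 values of single genes over the alternatives, 4076 kept direction and side of the threshold, 203 passed it and 4 reversed. List medians have no test: of 1148 values, 12 moved by more than the spread of the list level between libraries of a group, and 39, of 11 of the 41 lists, had the opposite sign to the value from all 15 libraries. With 1 library left out the clock median ran from -0.219 (without sedentary library 4) to -0.104, heat shock from -0.339 (without exercised library 10) to -0.154, immediate early from -0.299 to -0.116 (without sedentary library 7), and cohesin and condensin from 0.079 to 0.178 (without sedentary library 4). Single changes that fell by over 1.5 times were Thrsp (-0.471) and Bcl3 (-0.268) without sedentary library 5, Rel (-0.159) and Bst2 (-0.229) without sedentary library 10, Bax (-0.113) without sedentary library 7, Btc (0.26) and Hsd17b7 (0.104) without exercised library 7, Ctss (0.336) and Lcp1 (0.432) without exercised library 8, and H3f3a (0.714) and Calr (0.064) without exercised library 10. The reversed changes were H3f3a at -0.055 (edgeR adjusted p = 0.925) and Calr at -0.033 (0.92) without exercised libraries 7, 8 and 10, Lcp1 at -0.019 (0.983) with the pan-leukocyte covariate and H2-T23 at 0.018 (0.976) without sedentary library 10 (-0.242 to 0.018 with 1 library left out). Lcp1 is itself among the genes averaged in that covariate, so its value near 0 there was built in. The cause of the other changes was not tested. At 15924340 to 25563245 counts per library, genes near 1 CPM rest on few reads.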

Other observations

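Lists of splicing and DNA repair genes were drawn up after the values were seen, so their counts and directions are descriptions only. At an unadjusted p under 0.05, 7 of 29 regulators of splicing were lower and 1 higher, against 6.67% and 5.92% of all genes. Of the 29 genes 22 were below 0 and 7 above, with a median of -0.08 log2 (-0.10 without exercised libraries 7, 8 and 10). Their mean level was 7.71 to 7.83 log2 CPM in sedentary and 7.62 to 7.70 in exercised libraries. The groups do not overlap, but the list was assembled around genes seen to be lower. Beside Tra2a these included its paralogue Tra2b (-0.24) and the kinase genes Clk1 (-0.28), Clk2 (-0.35) and Clk4 (-0.22), which phosphorylate splicing factors. The large scaffold gene Son stood at 0.16. Core spliceosome genes were divided, with 16 of 29 above 0 and a median of 0.02. At an unadjusted p under 0.05 there were 4 in each direction, against the same shares of all genes.

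Of 24 large DNA repair and kinase genes 23 were above 0, 4 of them at an unadjusted p under 0.05 (5.92% of all genes). They had a median of 0.15 (0.23 without exercised libraries 7, 8 and 10). Their levels, 4.83 to 5.33 log2 CPM in sedentary and 4.84 to 5.34 in exercised libraries, overlapped almost fully.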
